A study of Mus musculus with 2 samples.

Results

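The 9 genes described here belong to the oxygen response, glucose uptake, glycolysis and lactate export, and were followed in 2 single-cell RNA libraries of cultured mouse epidermis, 1 labelled Bap1 knockout and 1 labelled wild type. They are Vegfa, Bnip3, Slc2a1, Hk2, Pgk1, Eno1, Ldha, Slc16a3 and Pdk1, named as a list and found through their NCBI gene identifiers among 36528 rows of both count tables, where each of the 9 had counts in both libraries. The library labelled knockout came from 9 pooled neonates carrying Bap1fl/fl and Rosa26-CreERT2, a Cre recombinase driven from a ubiquitous locus and switched on by 4-OHT (4-hydroxytamoxifen). The library labelled wild type came from 11 pooled neonates carrying Rosa26-CreERT2 without the floxed allele. All neonates were C57BL/6 at postnatal day 1. Both pools grew in medium M254 with a human melanocyte growth supplement and 100 nM 4-OHT for 4 days and then without 4-OHT for 3 days, so that Cre and 4-OHT were shared by both. With 1 pooled library per genotype there was no replicate, no test between genotypes was possible, and the intervals below are at 95% and cover counting error only.

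Cells meet low oxygen through HIF, a pair of proteins made of an oxygen-regulated subunit such as HIF1A and its partner ARNT. Prolyl hydroxylases of the EGLN family mark HIF1A for the VHL ubiquitin ligase while oxygen is present, and when oxygen falls HIF1A persists and binds DNA at a short core motif. Its targets raise glucose entry, turn glucose into lactate, export that lactate, hold pyruvate back from the mitochondria and call in blood vessels. Many of these genes are also under other control, so their RNA is not a measure of oxygen.

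The deposited tables held 64954113 UMIs (molecules counted once by their barcode) in 1760 cells of the library labelled knockout and 77579465 UMIs in 1926 cells of the library labelled wild type, with medians of 33585 UMIs per cell in the library labelled knockout and 37223 in the library labelled wild type. The filters left 1738 cells labelled knockout and 1912 labelled wild type. Bap1 RNA itself went against the labels: it was 19.8 CPM (its count scaled by the total counts of the same cells, here 1279 UMIs) in all kept cells of the library labelled knockout and 14.1 CPM (1088 UMIs) in those of the library labelled wild type, a log2 ratio of 0.50 (0.38 to 0.61). Which exons the floxed allele loses was not stated in the labels, and a 3′ count may lie outside them. The libraries are therefore called by their labels throughout, and their cells KO-labelled and WT-labelled. They shared 3 cell barcodes. Leaving those cells out is among the alternatives given at the end.

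Cells of both libraries were clustered together into 11 clusters. The 7 clusters 0 to 6, called keratin-rich, held 1597 cells (91.9%) of the library labelled knockout and 1750 (91.5%) of the library labelled wild type. The name covers clusters led by keratinocyte or cycling markers and those that no marker set named. In clusters 0, 1, 3, 4 and 5 no listed marker passed the 5-fold limit, so there the name is a default. Different clusters carried the keratin-rich cells of each library. Clusters 1 and 4 were mainly KO-labelled. Cluster 1, led by Odam, Nupr1, Gdf15 and Gas6, held 567 KO-labelled and 23 WT-labelled cells, and cluster 4, led by Mme, Krt18 and Acta1, held 426 KO-labelled and 65 WT-labelled cells. Clusters 0 and 6 were mainly WT-labelled. Cluster 0, led by Ccl20, Cxcl5 and Igfbp3, held 49 KO-labelled and 629 WT-labelled cells, and the cycling cluster 6, with Top2a, Cdk1 and Ccnb1, held 19 KO-labelled and 148 WT-labelled cells. The other 3 were more even. Cluster 2, with the suprabasal markers Krtdap, Sbsn, Ivl and Cnfn, held 218 KO-labelled and 339 WT-labelled cells. The basal marker Krt14 also passed the 5-fold marker limit there, and the other listed suprabasal markers, Krt1 and Krt10 among them, did not. It is called suprabasal below after the larger set of markers. Cluster 3, led by Mir205hg and with Col17a1, held 222 KO-labelled and 325 WT-labelled cells, and cluster 5, led by Slx4ip and with Plau and Notch2, held 96 KO-labelled and 221 WT-labelled cells. Cluster 5 was also the shallowest of the 7, with medians of 20870 UMIs per cell in KO-labelled and 18132 UMIs in WT-labelled cells. The part of this depth in its ratios below was not tested. The smaller classes were Schwann-like (36 KO-labelled and 59 WT-labelled cells), melanocyte-like (56 KO-labelled and 22 WT-labelled), fibroblast-like (29 KO-labelled and 45 WT-labelled, which also held 5 skeletal muscle markers) and myeloid-like (20 KO-labelled and 36 WT-labelled, with 10 of 10 myeloid markers).

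Vegfa, Bnip3 and Slc16a3 were the genes whose RNA differed most between the libraries in keratin-rich cells. Ldha had the most UMIs of the 9, and its sum was nearly level. For these 4 genes, sequences in front of an annotated start are shown. Each is the 250 bases before an annotated RefSeq start on GRCm38.p6, read 5′ to 3′ on the gene's strand, with the HIF core motif in capitals. The motif was searched on both strands in 2 spellings. The first was ACGTG, and the other spelling was GCGTG. Where matches to the first overlap on the 2 strands they form the E-box, CACGTG, which MYC and related factors also bind.
Vegfa, chr17:46032378-46032627, minus strand: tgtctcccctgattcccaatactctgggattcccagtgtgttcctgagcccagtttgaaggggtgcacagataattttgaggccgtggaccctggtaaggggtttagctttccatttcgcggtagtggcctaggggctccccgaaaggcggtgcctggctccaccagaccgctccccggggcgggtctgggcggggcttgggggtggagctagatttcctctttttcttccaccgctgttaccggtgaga
Bnip3, chr7:138909507-138909756, minus strand: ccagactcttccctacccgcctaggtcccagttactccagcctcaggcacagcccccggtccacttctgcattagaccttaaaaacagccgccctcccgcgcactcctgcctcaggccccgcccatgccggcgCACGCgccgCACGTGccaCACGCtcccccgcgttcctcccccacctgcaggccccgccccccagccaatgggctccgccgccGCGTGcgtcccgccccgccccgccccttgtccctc
Ldha, chr7:46845554-46845803, plus strand: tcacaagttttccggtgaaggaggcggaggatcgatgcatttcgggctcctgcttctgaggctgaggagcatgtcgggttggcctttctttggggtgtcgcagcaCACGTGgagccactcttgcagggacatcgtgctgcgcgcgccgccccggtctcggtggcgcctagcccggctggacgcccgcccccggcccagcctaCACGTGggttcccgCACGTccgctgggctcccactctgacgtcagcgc
Slc16a3, chr11:120948817-120949066, plus strand: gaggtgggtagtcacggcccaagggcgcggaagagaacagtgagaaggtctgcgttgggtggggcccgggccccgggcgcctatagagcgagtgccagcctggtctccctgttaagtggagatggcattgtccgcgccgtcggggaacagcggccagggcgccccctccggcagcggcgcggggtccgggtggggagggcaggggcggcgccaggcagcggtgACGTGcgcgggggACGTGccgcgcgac
The Vegfa window held 0 matches, while a second annotated Vegfa start inside the gene had 2. The Bnip3 window held 4 separate stretches, 1 of them an E-box. The Ldha window shown held 3, of which 2 were E-boxes, and the Slc16a3 window held 2. These Ldha and Slc16a3 windows lie inside the annotated spans of their genes, which begin further upstream. A second Ldha window held 1 stretch and 0 E-boxes. Over all 14 annotated windows of the 9 genes, 12 (85.7%) held at least 1 match, against 12679 of 32851 windows of all genes (38.6%), and 9 of 14 (64.3%) held at least 2 stretches, against 13.4% of all windows. Some of the 14 windows lie in the same gene, and 2 of the 3 Eno1 windows overlap. The 9 genes were listed for the oxygen response and glycolysis, and the windows of all genes were not matched to theirs in base content. These shares are therefore no test. A match in these letters is a description and no evidence of binding. Bnip3 and Slc16a3, which were lower in keratin-rich cells of the library labelled knockout, and Ldha, which was level, all carried it.

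In the keratin-rich cells the 9 genes did not move together. Vegfa was 2.88-fold higher in the library labelled knockout, Bnip3, Slc16a3 and Hk2 were 3.95-fold, 5.25-fold and 1.89-fold lower, and Ldha, Eno1 and Pgk1 differed by less than 1.05-fold. Slc2a1 was 1.33-fold higher and Pdk1 1.36-fold lower. At a difference of 1.5-fold and at least 20 UMIs, 1 of the 9 was therefore higher and 3 were lower, while 7.72% of the 16750 genes measured that deeply were higher and 17.5% lower. At 2-fold, 1 of the 9 was higher and 2 were lower, while 3.14% of those genes were higher and 9.13% lower. The median log2 ratio of the 9 was -0.03, beside -0.02 for all genes measured.

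**Figure D1:**
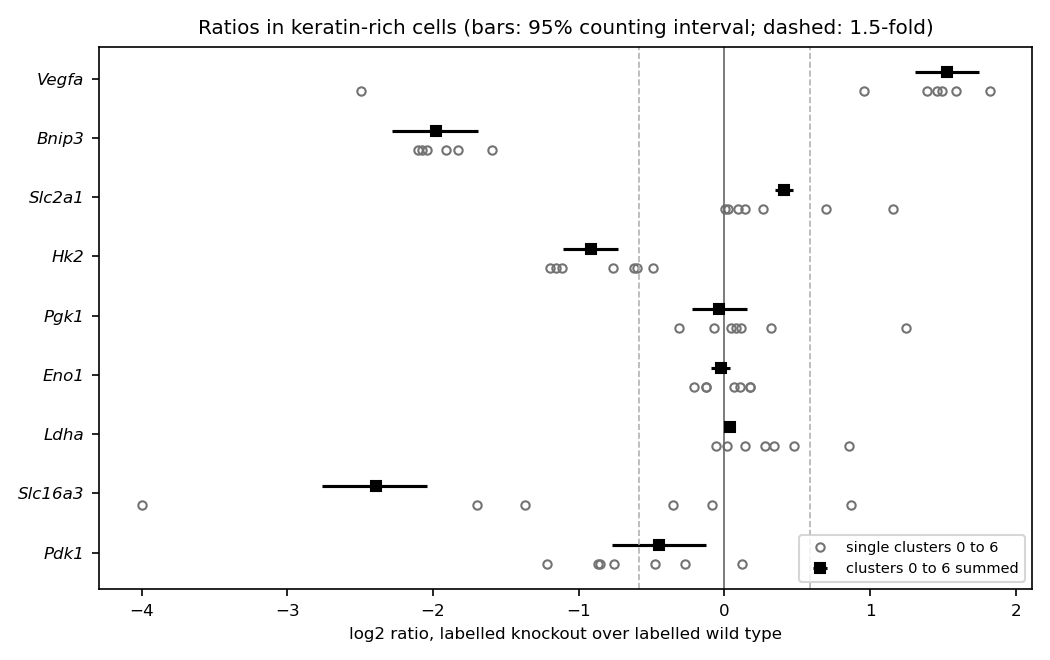
Log2 ratio of each gene in keratin-rich cells, the library labelled knockout over the library labelled wild type. Black squares are the sums over clusters 0 to 6 with 95% counting intervals, open circles are single clusters with at least 1 UMI in each library, and dashed lines mark 1.5-fold. Vegfa stands at 1.52, Bnip3 at -1.98, Slc16a3 at -2.39 and Hk2 at -0.92, and the circles of Slc16a3 spread from -4.00 to 0.87. The circle at -4.00 rests on 2 UMIs in KO-labelled cells (interval -7.05 to -2.13). The circle at 0.87 rests on 5 UMIs in each library, with an interval (-1.25 to 2.99) that includes 0.

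Vegfa encodes the ligand that draws in and sustains blood vessels. It had 586 UMIs, or 9.42 CPM, in keratin-rich cells of the library labelled knockout and 243 UMIs, or 3.27 CPM, in those of the library labelled wild type, a log2 ratio of 1.52 (1.31 to 1.75). The level was higher in 6 of 7 clusters, and in 5 of them the interval lay above 0. It was highest in clusters 3 and 5 of the library labelled knockout, at 14.96 CPM and 14.7 CPM, against 5.44 CPM and 5.60 CPM in the library labelled wild type. In the suprabasal cluster 2 it was 5.97 CPM in KO-labelled and 1.98 CPM in WT-labelled cells, and in the cycling cluster 6 it was 8.51 CPM in KO-labelled and 3.03 CPM in WT-labelled cells. The exception was cluster 0, with 1 UMI in 49 cells of the library labelled knockout and 73 UMIs in 629 cells of the library labelled wild type, where the interval of the ratio (-7.82 to 0.03) reached 0. Vegfa RNA was spread over many cells: 26.8% of keratin-rich cells in the library labelled knockout held a UMI and 11.9% in the library labelled wild type, and with every cell thinned to 8000 UMIs the shares were 7.39% in KO-labelled and 3.14% in WT-labelled cells. In myeloid-like cells the thinned counts were 2 of 20 KO-labelled and 0 of 36 WT-labelled cells with a Vegfa UMI, at median depths before thinning of 16120 UMIs in KO-labelled and 19443.5 UMIs in WT-labelled cells.

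Other VEGF ligands and receptors did not reach 1.5-fold in the direction of Vegfa. Of 10 listed genes, all with at least 20 UMIs, Vegfa was the 1 past 1.5-fold higher and 5 were past it lower, with a list median of -0.45. Of all genes measured in keratin-rich cells, 7.72% were past 1.5-fold higher and 17.5% past it lower, with a median of -0.02. Vegfb, a ligand linked mainly to metabolism in heart and muscle, was 9.62 CPM in KO-labelled and 17.4 CPM in WT-labelled cells, and Pgf, placental growth factor, was 1.22 CPM in KO-labelled and 2.69 CPM in WT-labelled cells. Flt1, a VEGF receptor, was 2.52 CPM in KO-labelled and 6.56 CPM in WT-labelled cells, and Kdr, the main signalling receptor for Vegfa, had 7 UMIs in KO-labelled and 47 UMIs in WT-labelled cells. Vegfc, a ligand for lymphatic vessels, was 17.6 CPM in KO-labelled and 12.5 CPM in WT-labelled cells, a log2 ratio of 0.50 (0.37 to 0.63) that stayed under 1.5-fold.

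Bnip3 encodes a receptor on the outer mitochondrial membrane that directs mitochondria to mitophagy. It had 117 UMIs (1.88 CPM) in the library labelled knockout and 551 UMIs (7.42 CPM) in the library labelled wild type, a log2 ratio of -1.98 (-2.28 to -1.69). It was the only member with an interval clear of 0 in 7 of 7 clusters, and it was lower in each of them. The ratio ran from -2.10 in cluster 1 to -1.59 in cluster 5 among the 6 clusters with UMIs in both libraries. In the cycling cluster it had 0 UMIs in 19 cells of the library labelled knockout and 48 UMIs in 148 cells of the library labelled wild type. With the empty side set at 3 UMIs that is 2.19-fold lower, and the low end of the interval was 1.71-fold. The share with a UMI was 7.01% in KO-labelled and 25.3% in WT-labelled keratin-rich cells, and 1.75% in KO-labelled and 5.60% in WT-labelled cells after thinning to 8000 UMIs.

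Bnip3l, its closest relative and also a mitophagy receptor, was 45.0 CPM in KO-labelled and 45.4 CPM in WT-labelled cells, a log2 ratio of -0.01 (-0.09 to 0.06). Of 16 listed mitophagy genes, 0 were past 1.5-fold higher and 1, Bnip3 itself, was past it lower, and the list median was -0.05. The shares over all genes measured were 7.72% higher and 17.5% lower. Pink1, the kinase that flags depolarised mitochondria, was 43.1 CPM in KO-labelled cells, against 58.3 CPM in WT-labelled cells. The adaptor Sqstm1 was 251 CPM in KO-labelled and 207 CPM in WT-labelled cells, and the adaptor Tax1bp1 was 166 CPM in KO-labelled and 145 CPM in WT-labelled cells.

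Slc2a1 encodes GLUT1, the main glucose transporter of basal keratinocytes. It was 74.6 CPM (4646 UMIs) in the library labelled knockout and 56.3 CPM (4178 UMIs) in the library labelled wild type, a log2 ratio of 0.41 (0.35 to 0.47). It was higher in 7 of 7 clusters, but the interval lay above 0 in only 2. In cluster 3 it was 133 CPM in KO-labelled and 82.3 CPM in WT-labelled cells, 1.62-fold, and in cluster 5 it was 91.5 CPM in KO-labelled and 41.0 CPM in WT-labelled cells, 2.23-fold. The suprabasal cluster 2 had the lowest level in both libraries, 33.0 CPM in KO-labelled and 30.9 CPM in WT-labelled cells. The neighbouring levels in the order of clusters 5, 6 and 4 of the library labelled knockout had overlapping intervals, as had 1 and 0.

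The median of the listed glucose transporters lay the other way. Of 9 with at least 20 UMIs, 0 were past 1.5-fold higher and 5 were past it lower, with a median of -0.71. All genes measured also leaned lower, with 7.72% past 1.5-fold higher and 17.5% past it lower, at a median of -0.02. Slc5a1, a sodium-coupled glucose transporter, was 1.46 CPM in KO-labelled and 5.35 CPM in WT-labelled cells, and Slc2a4, the insulin-responsive transporter of muscle and fat, was 2.23 CPM in KO-labelled cells, against 6.25 CPM in WT-labelled cells. Slc2a3 had 35 UMIs in each library, 0.562 CPM in KO-labelled and 0.471 CPM in WT-labelled cells. Slc2a8 was 8.64 CPM in KO-labelled and 9.86 CPM in WT-labelled cells.

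Hk2 encodes the inducible hexokinase, which traps glucose in the cell as glucose 6-phosphate. It was 5.30 CPM (330 UMIs) in the library labelled knockout and 10.0 CPM (743 UMIs) in the library labelled wild type, a log2 ratio of -0.92 (-1.11 to -0.73). It was lower in 7 of 7 clusters, with the interval below 0 in 4. The cycling cluster was highest in both libraries, at 9.36 CPM in KO-labelled and 20.3 CPM in WT-labelled cells. The suprabasal cluster 2 was lowest, at 2.39 CPM in KO-labelled cells, against 5.33 CPM in WT-labelled cells. All neighbouring clusters in these orders had overlapping intervals, and the KO-labelled value of the cycling cluster rests on 11 UMIs in 19 cells. Hk1, the constitutive hexokinase, was 18.5 CPM in KO-labelled and 20.5 CPM in WT-labelled cells, a log2 ratio of -0.15 (-0.26 to -0.04).

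Pgk1, the first ATP-making step of glycolysis, was 6.80 CPM in KO-labelled and 6.96 CPM in WT-labelled keratin-rich cells, a log2 ratio of -0.03 (-0.22 to 0.15). Cluster 5, the shallowest keratin-rich cluster with medians of 20870 UMIs in KO-labelled and 18132 UMIs in WT-labelled cells, stood apart at 10.6 CPM in KO-labelled and 4.48 CPM in WT-labelled cells, 2.37-fold (1.27-fold at the low end of its interval). Eno1, the enolase that makes phosphoenolpyruvate, was 58.9 CPM in KO-labelled and 60.0 CPM in WT-labelled cells, a log2 ratio of -0.03 (-0.09 to 0.04), and no cluster had an interval clear of 0. Eno1 has a near-identical copy, Eno1b, which carried 56.8 CPM in KO-labelled and 34.8 CPM in WT-labelled cells, a log2 ratio of 0.71. How reads that match both were assigned is not given in the sources used here. Summed, the pair was 116 CPM in KO-labelled and 94.8 CPM in WT-labelled cells, a log2 ratio of 0.29 (0.24 to 0.33), and Eno1 made up 50.9% of it in KO-labelled and 63.3% in WT-labelled cells, so the flat value of Eno1 depends on how the copies were split. Pgk1 and Gapdh also have processed copies in the mouse genome, and their low levels here are uncertain for the same reason.

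Ldha, the lactate dehydrogenase subunit that favours lactate, was 437 CPM (27215 UMIs) in KO-labelled and 425 CPM (31552 UMIs) in WT-labelled keratin-rich cells, a log2 ratio of 0.04 (0.02 to 0.07). That flat sum covered larger differences inside clusters. Ldha was higher in 6 of 7 clusters and clear of 0 in 5. It was 410 CPM in KO-labelled and 372 CPM in WT-labelled cells in cluster 0, 622 CPM in KO-labelled and 447 CPM in WT-labelled cells in cluster 3, 479 CPM in KO-labelled and 378 CPM in WT-labelled cells in the suprabasal cluster 2, 387 CPM in KO-labelled and 319 CPM in WT-labelled cells in cluster 4, and 457 CPM in KO-labelled and 253 CPM in WT-labelled cells in cluster 5, where the ratio was 1.81-fold. The cycling cluster was highest in both libraries, at 743 CPM in KO-labelled and 775 CPM in WT-labelled cells, and it held 19 cells of the library labelled knockout against 148 of the library labelled wild type. With each cluster given equal weight, the log2 ratio was 0.25, and without the cycling cluster it was 0.19. Without cluster 0, cluster 2 or cluster 3 it was -0.07, -0.01 and -0.04. Across single keratin-rich cells the median was 368 CPM in KO-labelled and 332 CPM in WT-labelled cells, and the middle 50% of cells ran from 239 to 543 CPM in the library labelled knockout and from 214 to 496 CPM in the library labelled wild type. Ldhb, the subunit that favours pyruvate, was 111 CPM in KO-labelled and 149 CPM in WT-labelled cells, a log2 ratio of -0.43 (-0.47 to -0.38).

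**Figure D2:**
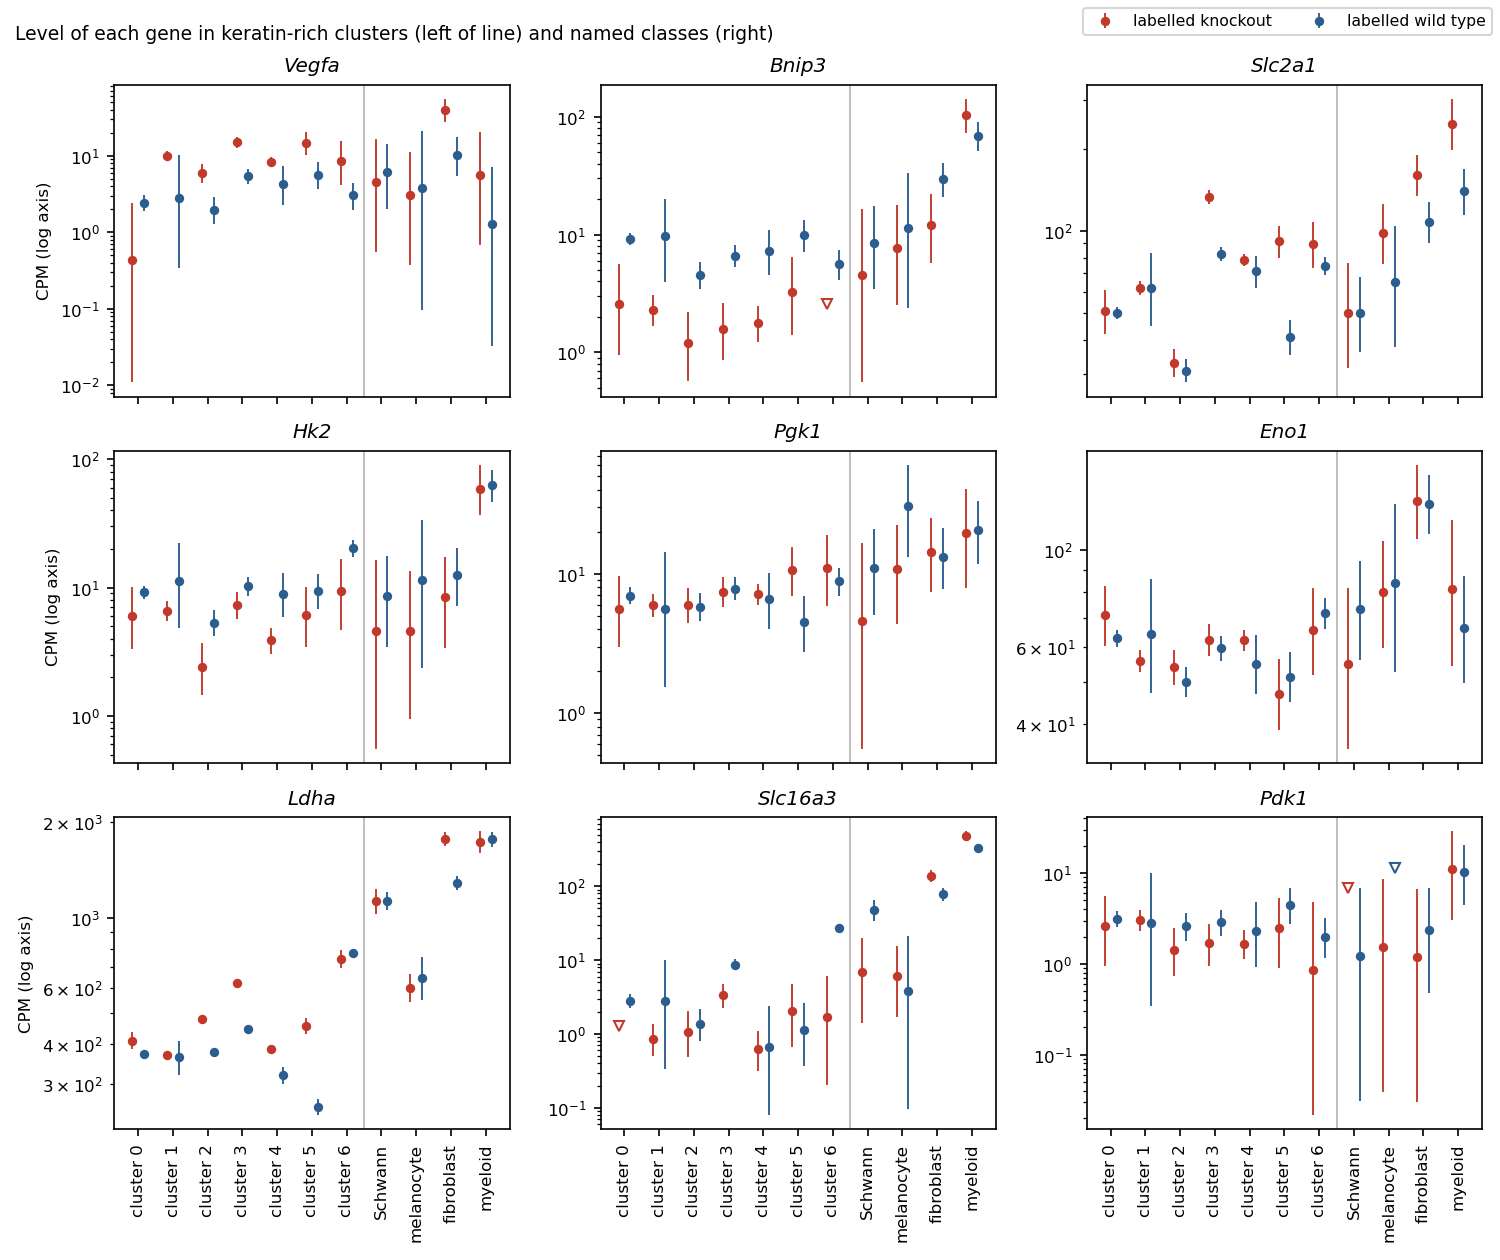
CPM of each gene (log axis) in the 7 keratin-rich clusters, left of the vertical line, and the 4 other classes, right of it. Red is the library labelled knockout and blue the library labelled wild type, bars are exact 95% Poisson intervals of the summed counts, and open triangles mark the level of 3 UMIs where the sum was 0. Ldha stands at 743 CPM in KO-labelled and 775 CPM in WT-labelled cells in cluster 6 and at 457 CPM in KO-labelled and 253 CPM in WT-labelled cells in cluster 5, and Bnip3 is lower in the library labelled knockout in all 7 keratin-rich clusters.

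The wider set of glycolysis enzymes was mixed. Of 22 with at least 20 UMIs, 1 was past 1.5-fold higher and 5 were past it lower, with a median of -0.03. The higher one was Eno1b. Among all genes measured, 7.72% were past 1.5-fold higher and 17.5% past it lower. Gpi1, which converts glucose 6-phosphate to fructose 6-phosphate, was 26.8 CPM in KO-labelled and 18.4 CPM in WT-labelled cells, Tpi1, a triose isomerase, was 133 CPM in KO-labelled and 97.6 CPM in WT-labelled cells, and Pkm, pyruvate kinase, was 1580 CPM in KO-labelled and 1219 CPM in WT-labelled cells, all under 1.5-fold. Aldoc, an aldolase, was 2.38 CPM in KO-labelled and 5.72 CPM in WT-labelled cells, and Pfkp, a phosphofructokinase subunit, was 6.30 CPM in KO-labelled and 11.3 CPM in WT-labelled cells. Of 12 regulators of glycolysis, 0 were past 1.5-fold higher and 5 were past it lower. Among these Pfkfb3, which makes the activator of phosphofructokinase, was 1.19 CPM in KO-labelled and 2.75 CPM in WT-labelled cells, and Pfkfb4 was 1.08 CPM in KO-labelled and 1.94 CPM in WT-labelled cells. Txnip, which slows glucose uptake, was 23.8 CPM in KO-labelled and 22.5 CPM in WT-labelled cells, and Mlxip, a glucose-sensing transcription factor, was 11.3 CPM in KO-labelled cells, against 11.6 CPM in WT-labelled cells.

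Slc16a3 encodes MCT4, the exporter through which glycolytic cells release lactate. It had 75 UMIs (1.21 CPM) in keratin-rich cells of the library labelled knockout and 470 UMIs (6.33 CPM) in those of the library labelled wild type, a log2 ratio of -2.39 (-2.76 to -2.04). In contrast to Bnip3, the difference was uneven. The cycling cluster of the library labelled wild type, with 8.46% of its keratin-rich cells, held 234 of the 470 UMIs (49.8%), and the library labelled knockout had 2 of its 75 UMIs there. The levels in that cluster were 1.70 CPM in KO-labelled and 27.2 CPM in WT-labelled cells. In the library labelled wild type 57 of 148 cycling cells held a UMI, and the 1 cell with most held 39 UMIs. Without cluster 6 the log2 ratio was -1.59. In cluster 3 the level was 3.37 CPM in KO-labelled and 8.72 CPM in WT-labelled cells. In cluster 0 there were 0 UMIs in KO-labelled and 84 UMIs in WT-labelled cells. With the empty side set at 3 UMIs that is 2.16-fold lower, and the low end of the interval was 1.72-fold. In clusters 1, 2, 4 and 5 neither library went above 2.80 CPM, and every interval of the ratio included 0. Markers of cycling summed to 94.2 CPM in KO-labelled and 363 CPM in WT-labelled keratin-rich cells, and the part of that in the Slc16a3 difference was measured only by leaving cluster 6 out.

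Of 10 genes of lactate export and pH balance with at least 20 UMIs, 1 was past 1.5-fold higher and 3 were past it lower. The shares over all genes measured were 7.72% higher and 17.5% lower. Slc16a1, or MCT1, the other widespread lactate transporter, was 1.37 CPM in KO-labelled and 3.14 CPM in WT-labelled cells, a log2 ratio of -1.20. Of the 2 partner proteins that carry these transporters to the surface, Emb was 14.3 CPM in KO-labelled and 41.7 CPM in WT-labelled cells, a log2 ratio of -1.54, and Bsg was 1026 CPM in KO-labelled and 934 CPM in WT-labelled cells, a log2 ratio of 0.14. Car2, a carbonic anhydrase, was 1.67 CPM in KO-labelled and 0.875 CPM in WT-labelled cells.

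Pdk1 encodes a kinase that switches off pyruvate dehydrogenase. It was 2.12 CPM (132 UMIs) in KO-labelled and 2.89 CPM (215 UMIs) in WT-labelled keratin-rich cells, a log2 ratio of -0.45 (-0.77 to -0.13), and it was lower in 6 of 7 clusters, none with an interval clear of 0. Without cluster 1 the ratio was -0.77, past 1.5-fold. Pdk3, another kinase of the complex, was 9.48 CPM in KO-labelled and 29.1 CPM in WT-labelled cells, a log2 ratio of -1.62. Pdk2 was 4.27 CPM in KO-labelled and 7.22 CPM in WT-labelled cells, a log2 ratio of -0.76, and Pdk4 had 5 UMIs in KO-labelled and 19 UMIs in WT-labelled cells. The list here held 14 genes of the pyruvate dehydrogenase complex, its kinases and phosphatases and the mitochondrial pyruvate carrier. Of these, 0 were past 1.5-fold higher and 5 were past it lower, with a median of -0.41. Beside them, 7.72% of all genes measured were higher and 17.5% lower, with a median of -0.02. Mpc2, a carrier subunit, was 103 CPM in KO-labelled and 194 CPM in WT-labelled cells, whereas Pdha1, a subunit of the dehydrogenase itself, was 81.7 CPM in KO-labelled and 64.3 CPM in WT-labelled cells, and Pdhb, another, was 71.3 CPM in KO-labelled cells, against 58.2 CPM in WT-labelled cells.

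The RNAs of the HIF pathway itself were nearly level. Hif1a was 49.26 CPM in KO-labelled and 49.99 CPM in WT-labelled keratin-rich cells, a log2 ratio of -0.02 (-0.09 to 0.05). Arnt was 11.5 CPM in KO-labelled and 9.80 CPM in WT-labelled cells, Vhl 9.98 CPM in KO-labelled and 11.0 CPM in WT-labelled cells, and the hydroxylase gene Egln1 22.4 CPM in KO-labelled and 23.3 CPM in WT-labelled cells. Egln3, a hydroxylase gene that HIF induces, was 0.675 CPM in KO-labelled and 0.687 CPM in WT-labelled cells, and Epas1, which encodes another oxygen-regulated subunit, was 0.514 CPM in KO-labelled and 0.646 CPM in WT-labelled cells. Of 17 listed factors and regulators, 1 was past 1.5-fold higher and 1 past it lower, beside 7.72% and 17.5% of all genes measured. The higher one was Siah2, a ubiquitin ligase for the hydroxylases, at 17.4 CPM in KO-labelled and 11.3 CPM in WT-labelled cells. The lower one was Hif3a, with 10 UMIs in KO-labelled and 18 UMIs in WT-labelled cells. The complex subunit Rbx1 was 422 CPM in KO-labelled and 336 CPM in WT-labelled cells and the HIF1A competitor Cited2 226 CPM in KO-labelled and 283 CPM in WT-labelled cells, both under 1.5-fold. HIF1A is regulated mainly as a protein, which these counts do not measure.

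Other reported HIF targets split in both directions. Past 1.5-fold, 7.72% of all genes measured were higher and 17.5% lower. Of 37 targets with at least 20 UMIs, 4 were past 1.5-fold higher and 4 past it lower, with a median of 0.02. The higher ones were Stc2, a secreted glycoprotein, at 4.00 CPM in KO-labelled and 1.21 CPM in WT-labelled cells, Lox, the collagen cross-linking enzyme, at 7.26 CPM in KO-labelled and 3.30 CPM in WT-labelled cells, Angptl4, a lipoprotein lipase inhibitor, at 138 CPM in KO-labelled and 76.2 CPM in WT-labelled cells, and Ddit4, an inhibitor of mTORC1, at 463 CPM in KO-labelled cells, against 263 CPM in WT-labelled cells. The lower ones were Igfbp3, which binds insulin-like growth factors, at 122 CPM in KO-labelled and 307 CPM in WT-labelled cells, Pfkfb3 and Pfkfb4, given above, and Hilpda, a lipid droplet protein, at 29.1 CPM in KO-labelled and 44.0 CPM in WT-labelled cells. Igfbp3 is also a leading gene of cluster 0, which held 49 KO-labelled and 629 WT-labelled cells. Of the genes on this list under 1.5-fold, Ndrg1 was 62.1 CPM in KO-labelled and 60.6 CPM in WT-labelled cells, P4ha2 was 104 CPM in KO-labelled and 102 CPM in WT-labelled cells, and Adm was 109 CPM in KO-labelled and 97.7 CPM in WT-labelled cells, a log2 ratio of 0.16 (0.11 to 0.20).

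In neighbouring routes of sugar metabolism no listed gene was past 1.5-fold higher. Of 9 genes of the pentose phosphate pathway 0 were past 1.5-fold higher and 1, Prps1, was past it lower, at 5.05 CPM in KO-labelled and 11.7 CPM in WT-labelled cells, while G6pdx, the entry enzyme, was 87.0 CPM in KO-labelled and 68.0 CPM in WT-labelled cells, Rpia was 23.3 CPM in KO-labelled and 18.2 CPM in WT-labelled cells and Pgls was 410 CPM in KO-labelled cells, against 434 CPM in WT-labelled cells. Of 17 genes of the TCA cycle 0 were past 1.5-fold in either direction, with Idh3a at 111 CPM in KO-labelled and 151 CPM in WT-labelled cells and Idh3g at 105 CPM in KO-labelled and 93.1 CPM in WT-labelled cells. Of 14 glycogen genes 0 were higher and 3 lower, among them Pygl, a glycogen phosphorylase, at 0.370 CPM in KO-labelled and 2.05 CPM in WT-labelled cells and Ppp1r3b, a glycogen-targeting subunit of a phosphatase, at 0.402 CPM in KO-labelled and 1.72 CPM in WT-labelled cells, while Pgm1 was 46.8 CPM in KO-labelled and 42.1 CPM in WT-labelled cells. Over all lists of sugar metabolism, mitophagy, HIF and VEGF together, 8 of 181 genes (4.42%) were past 1.5-fold higher and 36 (19.9%) past it lower, while of all genes measured 7.72% were higher and 17.5% lower. Of 14 immediate early genes, which cell dissociation can induce, 0 were past 1.5-fold higher and 3 were past it lower, with a list median of -0.10. Fos was 32.6 CPM in KO-labelled and 79.4 CPM in WT-labelled cells, Fosb 4.804 CPM in KO-labelled and 13.8 CPM in WT-labelled cells and Egr1 14.1 CPM in KO-labelled and 33.1 CPM in WT-labelled cells. Under 1.5-fold, Btg2 was 257 CPM in KO-labelled and 212 CPM in WT-labelled cells and Ier2 224 CPM in KO-labelled cells, against 207 CPM in WT-labelled cells. Their part in the results above was not tested.

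**Figure D3:**
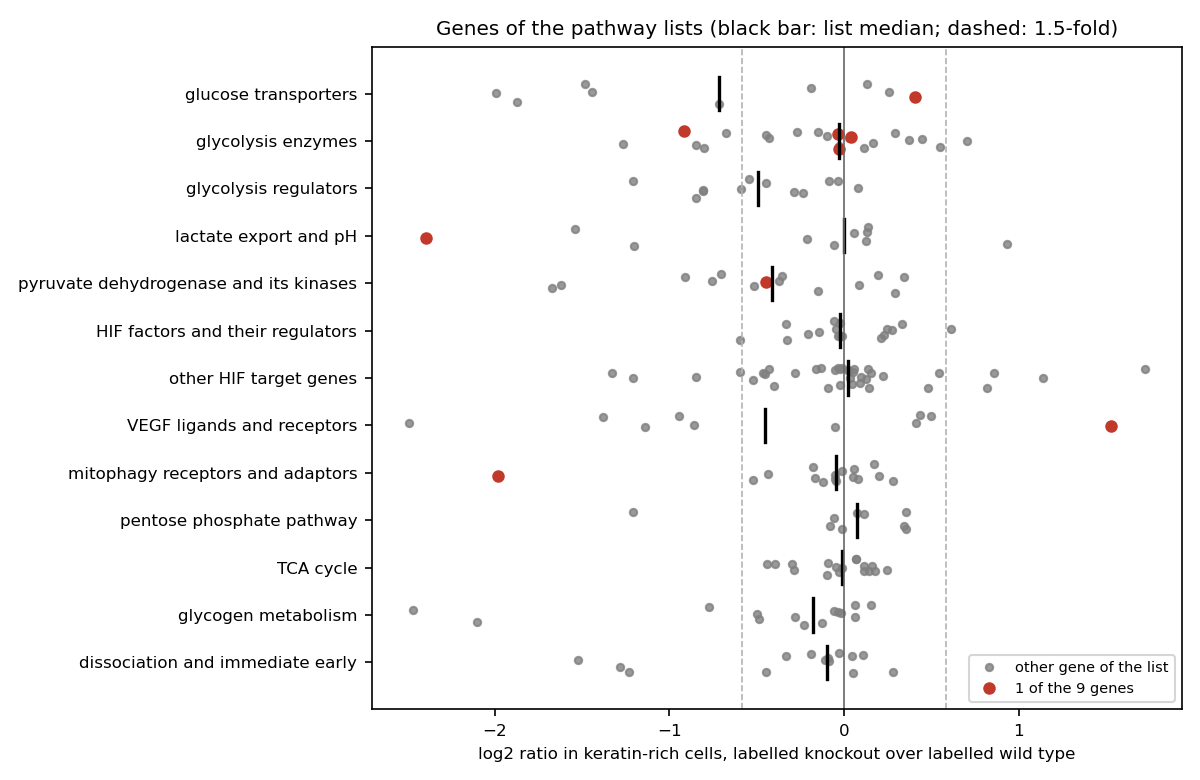
Log2 ratio in keratin-rich cells, the library labelled knockout over the library labelled wild type, for each gene of the 13 lists with at least 20 UMIs. Red points are the 9 genes, grey points the other genes of a list, black bars the list medians and dashed lines 1.5-fold. Vegfa, Bnip3 and Slc16a3 each lie far from the median of their list, which is -0.45 for VEGF ligands and receptors, -0.05 for mitophagy and 0.00 for lactate export and pH.

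Of the classes, myeloid-like cells, with the macrophage genes C1qa and Csf1r, had the highest level of 5 of the 9 genes in both libraries: Bnip3, Slc2a1, Hk2, Slc16a3 and Pdk1. For Pdk1 this rests on 4 UMIs in KO-labelled and 8 UMIs in WT-labelled cells, with intervals that overlap those of other classes, and for Slc2a1 the interval in the library labelled wild type overlaps that of fibroblast-like cells. Slc16a3 was 474 CPM (169 UMIs in 20 cells) in KO-labelled and 325 CPM (254 UMIs in 36 cells) in WT-labelled cells, a log2 ratio of 0.55 (0.26 to 0.83). A UMI was seen in 19 of the 20 KO-labelled and 32 of the 36 WT-labelled cells. Ldha was 1730 CPM in KO-labelled and 1768 CPM in WT-labelled cells, Hk2 58.9 CPM in KO-labelled and 62.6 CPM in WT-labelled cells, and Hif1a 185 CPM in KO-labelled and 214 CPM in WT-labelled cells. Bnip3 was 104 CPM in KO-labelled and 69.0 CPM in WT-labelled cells, a log2 ratio of 0.59 (-0.06 to 1.22), and Slc2a1 was 247 CPM in KO-labelled and 139 CPM in WT-labelled cells, a log2 ratio of 0.82 (0.40 to 1.24). The Bnip3 median over single cells did not share that direction, at 58.3 CPM in KO-labelled and 61.9 CPM in WT-labelled cells. The Slc2a1 median did, at 217 CPM in KO-labelled and 109 CPM in WT-labelled cells. Of the 7 members with at least 20 UMIs there, 2 (Bnip3 and Slc2a1) were past 1.5-fold higher and 0 past it lower, while of 5109 genes in these cells 14.4% were higher and 14.9% lower. Egln3, at 0.675 CPM in KO-labelled and 0.687 CPM in WT-labelled keratin-rich cells, was 81.3 CPM in KO-labelled and 84.4 CPM in WT-labelled myeloid-like cells. Vegfa had 2 UMIs in KO-labelled cells and 1 UMI in WT-labelled cells, too few to place it. Eno1 was 81.3 CPM in KO-labelled and 66.5 CPM in WT-labelled myeloid-like cells. It was highest in fibroblast-like cells, at 129 CPM in KO-labelled and 127 CPM in WT-labelled cells, with intervals that overlap those of the next class. Pgk1 was 19.6 CPM in KO-labelled and 20.5 CPM in WT-labelled myeloid-like cells.

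The part of free RNA from myeloid-like cells in the low Slc16a3 level elsewhere was not tested. Among keratin-rich cells Slc16a3 stood at 0.254% of its myeloid-like level in the library labelled knockout and at 1.95% in the library labelled wild type. Relative to its own myeloid-like level, Tyrobp stood at 0.0374% in KO-labelled and 0.0722% in WT-labelled cells, Lyz2 at 0.0493% in KO-labelled and 0.105% in WT-labelled cells, Fcer1g at 0.0470% in KO-labelled and 0.0746% in WT-labelled cells and C1qa at 0.0343% in KO-labelled and 0.0639% in WT-labelled cells. These 4 of the 10 myeloid markers stood below Slc16a3 in both libraries. Csf1r stood at 0.798% in KO-labelled and 0.592% in WT-labelled cells, above Slc16a3 in the library labelled knockout and below it in the library labelled wild type. The 10 myeloid markers summed to 22.4 CPM in KO-labelled and 33.6 CPM in WT-labelled keratin-rich cells, with 0 of 10 at 0. In myeloid-like cells they summed to 17694 CPM in KO-labelled and 15814 CPM in WT-labelled cells. The listed markers not named here, taken as a set, also stood above Slc16a3 in the library labelled knockout. In the library labelled wild type that set stood below it.

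**Figure D4:**
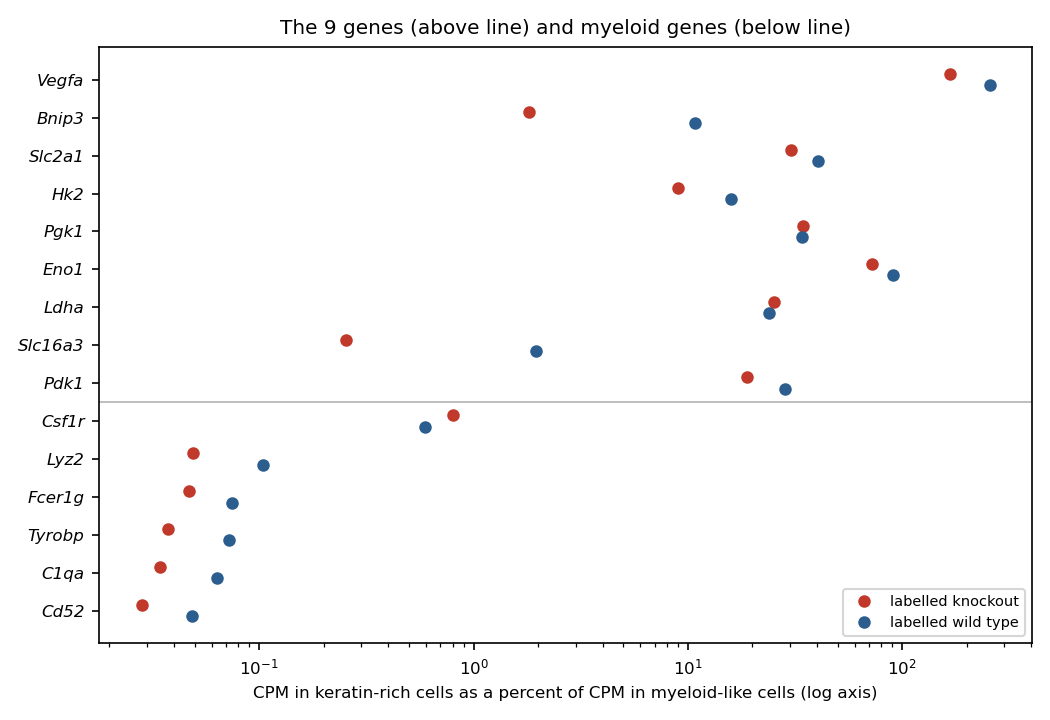
CPM in keratin-rich cells as a percent of CPM in myeloid-like cells (log axis) for the 9 genes, above the line, and 6 myeloid genes, below it. Red is the library labelled knockout and blue the library labelled wild type. Slc16a3 lies at 0.254% in KO-labelled and 1.95% in WT-labelled cells, above Lyz2 at 0.0493% in KO-labelled and 0.105% in WT-labelled cells and Tyrobp at 0.0374% in KO-labelled and 0.0722% in WT-labelled cells. Csf1r lies at 0.798% in KO-labelled and 0.592% in WT-labelled cells, and the Vegfa points rest on 2 UMIs in KO-labelled and 1 UMI in WT-labelled myeloid-like cells.

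Fibroblast-like cells had the highest Vegfa and, with the myeloid-like cells, the highest Ldha. Vegfa was 39.5 CPM (33 UMIs) in KO-labelled and 10.1 CPM (13 UMIs) in WT-labelled cells, a log2 ratio of 1.96 (1.00 to 3.01), but 1 cell of the library labelled knockout held 15 of its 33 UMIs. In the library labelled wild type the interval of the Vegfa level overlapped that of Schwann-like cells, the next in order at 6.12 CPM. Slc16a3 was 138 CPM in KO-labelled and 77.3 CPM in WT-labelled cells, a log2 ratio of 0.83 (0.43 to 1.23), and Bnip3 was 12.0 CPM in KO-labelled and 29.7 CPM in WT-labelled cells, a log2 ratio of -1.31 (-2.48 to -0.28). Ldha was 1772 CPM in KO-labelled and 1290 CPM in WT-labelled cells and Slc2a1 160 CPM in KO-labelled and 108 CPM in WT-labelled cells. The median over single cells did not share that direction: it was 785 CPM in KO-labelled and 1050 CPM in WT-labelled cells for Ldha, and 0 CPM in KO-labelled and 60.8 CPM in WT-labelled cells for Slc2a1. A Slc2a1 UMI was seen in 48.3% of KO-labelled and 57.8% of WT-labelled cells, and after thinning to 8000 UMIs in 41.4% of KO-labelled and 37.8% of WT-labelled cells. A few cells carried much of these sums, with 300 of 1481 Ldha UMIs and 23 of 115 Slc16a3 UMIs of the library labelled knockout each in 1 cell. Of 8 members with at least 20 UMIs, 2 (Vegfa and Slc16a3) were past 1.5-fold higher and 1 (Bnip3) past it lower, while of 7689 genes 8.75% were higher and 18.8% lower. Of 8 fibroblast markers, Dcn and Lum were at 0 in the library labelled knockout and none was in the library labelled wild type, and whether the class holds the same cells in both was not tested.

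In Schwann-like cells Slc16a3 had 3 UMIs (6.87 CPM) in KO-labelled and 39 UMIs (47.7 CPM) in WT-labelled cells, a log2 ratio of -2.80 (-5.14 to -1.14). It was the 1 of 4 members with at least 20 UMIs past 1.5-fold, beside 11.1% higher and 11.7% lower of 6984 genes, and Ldha was level there at 1129 CPM in KO-labelled cells, against 1133 CPM in WT-labelled cells. In melanocyte-like cells Slc2a1 was 98.5 CPM in KO-labelled and 64.9 CPM in WT-labelled cells, with an interval of the log2 ratio (-0.19 to 1.47) that included 0, 1 of 3 members with enough UMIs and past 1.5-fold higher, beside 13.6% higher and 13.2% lower of 5903 genes. Ldha was 600 CPM in KO-labelled and 645 CPM in WT-labelled cells. Eno1 differed by less than 1.5-fold in both classes. It was 54.9 CPM in KO-labelled and 73.4 CPM in WT-labelled Schwann-like cells, and 80.0 CPM in KO-labelled and 84.0 CPM in WT-labelled melanocyte-like cells. Slc2a1 was 50.4 CPM in KO-labelled and 50.2 CPM in WT-labelled Schwann-like cells. The other members had under 20 UMIs over both libraries in these classes, except Slc16a3 in Schwann-like cells, given above.

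Over the 21 profiles of 1 cluster in 1 library with at least 20 cells, some pairs of members varied together and others did not. On log2(CPM + 1), Ldha and Slc16a3 had a Pearson r of 0.92, Bnip3 and Hk2 0.87, and Bnip3 and Slc16a3 0.82, whereas Vegfa ran from -0.22 with Pdk1 to 0.40 with Slc2a1. Pdk1 had 0.66 with Hk2 but 0.07 with Ldha and -0.09 with Eno1. Profiles of 1 library share its depth and free RNA, and the myeloid-like profiles are high in most of the members, so these values are a description. Across single keratin-rich cells thinned to 8000 UMIs, Ldha and Slc16a3 had r of 0.069 in KO-labelled and 0.132 in WT-labelled cells. Bnip3 had -0.002 and 0.006 with Hk2, and -0.012 and 0.035 with Slc16a3, in the same order. At that depth Bnip3, Hk2 and Slc16a3 were each seen in at most 6.57% of these cells, which limits r. Among 9133 genes with at least 1000 UMIs, those with the highest mean r with the 9 members were Rbpj at 0.668, Gng2 at 0.653, Tnfsf9 at 0.648, Gapdh at 0.632 and Mtdh at 0.619, and each had its lowest r with Vegfa.

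The genes lie apart in the genome. On GRCm38.p6 their annotated spans are chr17:46016993-46032377 for Vegfa, chr7:138890836-138909506 for Bnip3, chr4:119108745-119137330 for Slc2a1, chr6:82725025-82774454 for Hk2, chrX:106187100-106203699 for Pgk1, chr4:150236708-150248879 for Eno1, chr7:46842274-46855627 for Ldha, chr11:120948484-120959000 for Slc16a3 and chr2:71873215-71903858 for Pdk1. Slc16a3 overlaps Csnk1d, and Bnip3, Ldha and Slc2a1 overlap genes known only by a model number. The sources used here do not give whether the counting used strand, so counts of overlapping genes may be shared.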

How the data were processed

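Per the labels' protocols, pooled neonatal epidermal cells were cultured and about 6000 viable cells per genotype were loaded on the 10x Chromium 3′ kit, version 2. The submitters' processing notes name mm10, Cell Ranger 2.1 and Seurat 2.0. The authors deposited raw UMI counts, genes by cells, with totals of 64954113 counts in the library labelled knockout and 77579465 in the library labelled wild type. Cell calling, the use of introns or strand and the treatment of multiply matching reads were not given by the sources used here. Symbols and coordinates came from RefSeq on GRCm38.p6, which matched 31049 of 36528 gene identifiers. The other 5479 held 2.67% of the UMIs and stayed in the totals. Promoter sequences are from RefSeq, same build, and all 9 genes matched.

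Cells needed at least 500 genes and at most 10% mitochondrial UMIs, which 16 cells labelled knockout and 13 labelled wild type failed. Scrublet (assumed rate 0.02) marked and removed 7 cells labelled knockout, 1 of which had also failed the filters, and 1 labelled wild type. Such low numbers leave doublets largely untreated. Cells were clustered together (2000 variable genes, 30 components, 15 neighbours, Leiden resolution 0.5, no integration). Of the 9 genes, 1 (Slc16a3) was among the variable genes. A class needed 3 markers at 5-fold over the other clusters and more than any other set. The clusters that no set named, or that keratinocyte or cycling markers led, were called keratin-rich, so cell types rest on rebuilt names. UMIs were summed per class and library, scaled to CPM, and given exact Poisson intervals, conditional exact intervals for ratios and Clopper-Pearson intervals for shares. Where 1 side had 0 UMIs the floor was 3 UMIs per library, and none is given where both sides had 3 or fewer. Fold limits applied to genes with at least 20 UMIs over both libraries. The code was tested on simulated data.

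The members and lists were chosen with earlier results of these data known. Named genes are the 9 members, their paralogues, Hif1a, Epas1, Arnt, Vhl, Egln1, Egln3 and Bap1, the 2 highest and 2 lowest ratios per list among genes with at least 100 UMIs, and the 5 genes most alike over clusters. Suclg2 and Pygb, which the rule also names, were under 1.5-fold. Another gene that the rule names is not reported here. Other genes were named after their values were seen. Python 3.11.15, scanpy 1.11.5, leidenalg 0.10.2, scipy 1.17.1 and matplotlib 3.10.9 were used.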

Additional observations from a re-analysis of the deposited data

Results flagged for a closer look

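Slc16a3 had opposite ratios in different cell classes. Its log2 ratio, the library labelled knockout over the library labelled wild type, was 0.83 (0.43 to 1.23) in fibroblast-like cells and 0.55 (0.26 to 0.83) in myeloid-like cells, against -2.39 (-2.76 to -2.04) in keratin-rich cells. With 1 library per genotype the difference between classes was not tested, and the small classes held 29 fibroblast-like and 20 myeloid-like cells labelled knockout, against 45 fibroblast-like and 36 myeloid-like cells labelled wild type.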

How the results depend on the processing

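Over 22 alternatives of cell filters, clustering, scaling, depth, cell weight and left-out clusters, Vegfa ran from 1.30 to 1.82, Bnip3 from -2.13 to -1.62, Hk2 from -1.09 to -0.68 and Slc16a3 from -2.80 to -0.97 on the log2 scale, each past 1.5-fold in 22 of 22. The value of -0.97 for Slc16a3 came from all kept cells, which add the myeloid-like and fibroblast-like cells, and clustering without the pathway genes gave -2.01. Slc2a1, Pgk1, Eno1 and Ldha stayed under 1.5-fold in 22 of 22. At 2-fold in place of 1.5-fold, 3 of 181 pathway genes were higher and 19 lower, against 8 and 36. Of all genes measured, 3.14% were higher and 9.13% lower at 2-fold. The intervals of the share of cells with a UMI lay apart for 0 members higher and 2 lower (Bnip3 and Slc16a3) at 2000 UMIs per cell. At 8000 they lay apart for 2 higher (Vegfa and Slc2a1) and 3 lower (with Hk2). The same count was not made over all genes, so these counts have no background to be read against. Levels of a few UMIs limit single clusters and the small classes. No paired analysis was possible because each genotype had 1 library, and for the same reason no replicate could be left out. Genotype cannot be told apart from the pool, culture or library it came in.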
